A study of Mus musculus with 18 samples.

Results

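Granule neuron progenitor transcription factors are described here by 10 genes: Atoh1, Neurod1, Nhlh1, Nhlh2, Pax6, Tlx3, Barhl1, Meis1, Zic1 and Zic5. They were taken by symbol from the deposited table of mouse medulloblastoma arrays, in which 19938 genes could be named, and each was read from its brightest probe set by the mean of the 18 arrays. All 10 were found.

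The study hybridized total RNA from 18 tumours, extracted with Trizol, to Affymetrix mouse Gene ST 1.0 arrays and sorted the tumours into subtypes named NG, GFD and GFI, which the labels do not explain. Of the Ptch tumours 4 were of the NG subtype (NG-Ptch), 2 of GFD (GFD-Ptch) and 4 of GFI (GFI-Ptch). Of the Smo tumours 4 carried Atoh1-CreER and were of the NG subtype (NG-Smo), and 4 carried GFAP-cre and were of the GFD subtype (GFD-Smo). The labels name the genes Ptch and Smo without the allele, give no age and no strain of the tumour-bearing mice other than the host named below, and name no treatment. Atoh1-CreER is a Cre recombinase driven by regulatory sequence of Atoh1, which is itself a member of the list, and GFAP-cre is driven by that of the astrocyte gene Gfap. In the Smo tumours subtype and Cre driver therefore cannot be told apart, and whether the driver bears on the Atoh1 level was not tested. GFI-Ptch replicate 4 came from an earlier tumour by its label, which gives a female of the NSG strain as the host; below it is the transplanted tumour. No label states that replicates are separate animals, and p-values cover only the spread between these samples.

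Granule neurons of the cerebellum arise from progenitors that leave the rhombic lip under the control of Atoh1 and divide in the external granule layer while they receive Sonic hedgehog. Loss of the receptor Ptch1, or activity of its partner Smo, keeps that signal on, and such progenitors are a known source of Hedgehog-driven medulloblastoma. As the cells stop dividing they pass from Atoh1 to factors such as Neurod1 and the Nhlh pair, while Pax6, Barhl1, Meis1 and the Zic genes mark the lineage more broadly.

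All values are log2 levels as deposited, between 4.22 and 14.32 over the table, with array medians of 7.736 to 7.868. A gene's level was compared between groups, never with the level of another gene, because each probe set has its own brightness. Every member passed a filter that kept genes whose highest group mean reached 7.803, the median of all values, as did 11854 of 19938 genes. Y-linked genes went against the gender label on 3 of 13 labelled arrays, namely the transplanted tumour and replicates 2 and 3 of GFD-Smo. Y-linked levels were high on 0 of 4 NG-Ptch arrays and on 2 of 2 GFD-Ptch arrays, so sex and subtype cannot be told apart in that comparison. Y-linked levels were also high on 2 of 4 NG-Smo, 1 of 4 GFD-Smo and 1 of 4 GFI-Ptch arrays. The shares thus also differ in GFD-Smo against GFD-Ptch, GFD-Smo against NG-Smo and NG-Smo against NG-Ptch. These are bulk tumours, in which fewer cells of a type and less RNA per cell cannot be told apart.

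Promoters were read from RefSeq (build GRCm38.p6) as the 250 bases before each annotated start. All 10 members had an entry, 12 windows in all, because Pax6 and Barhl1 have 2 starts. Nhlh1 and Neurod1 are shown because they are the members that differed between GFD-Smo and GFD-Ptch. Barhl1 is shown because, of the members without overlap between GFD-Smo and NG-Smo, it alone was higher in GFD-Smo. It was not called, and Pax6 differed more in that direction, with overlap. The windows are chr1:172057597-172057846 (minus strand) for Nhlh1, chr2:79456637-79456886 (minus strand) for Neurod1 and chr2:28916669-28916918 (minus strand) for the first start of Barhl1, each written 5′ to 3′. Capitals mark the E-box, the CANNTG motif that basic helix-loop-helix proteins bind, where N is any base.
Nhlh1: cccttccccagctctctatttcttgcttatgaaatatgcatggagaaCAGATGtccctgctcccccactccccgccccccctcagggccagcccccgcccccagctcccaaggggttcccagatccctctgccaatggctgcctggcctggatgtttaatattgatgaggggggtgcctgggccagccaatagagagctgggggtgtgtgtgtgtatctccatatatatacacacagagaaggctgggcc
Neurod1: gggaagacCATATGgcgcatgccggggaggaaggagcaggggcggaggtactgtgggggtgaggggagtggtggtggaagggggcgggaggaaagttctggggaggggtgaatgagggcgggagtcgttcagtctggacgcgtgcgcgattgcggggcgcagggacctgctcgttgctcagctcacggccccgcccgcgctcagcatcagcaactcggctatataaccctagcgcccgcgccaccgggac
Barhl1: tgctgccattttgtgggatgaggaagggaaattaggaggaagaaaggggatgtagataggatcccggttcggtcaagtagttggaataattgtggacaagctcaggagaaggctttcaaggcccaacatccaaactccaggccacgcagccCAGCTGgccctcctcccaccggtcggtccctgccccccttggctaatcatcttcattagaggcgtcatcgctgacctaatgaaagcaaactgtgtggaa
The Nhlh1 window held CAGATG at position -203 from the start, the Neurod1 window CATATG at -242, and the Barhl1 window CAGCTG at -99. An E-box was present in 9 of the 12 windows, from 8 members, against 66.2% of the 32851 windows of the same length, and the windows of Atoh1 and Tlx3 had none. The narrower form CAGCTG, itself an E-box, was found only for Barhl1 among the members, in both of its windows, against 13% of all windows. On either strand the Gli core GACCACCCA was in 0 of the 12 windows (0.225% of all), the homeobox core TAATTA in 0 (4.84%) and the Meis core TGACAG in 2 (15.9%), a Pax6 and the Nhlh2 window. Such matches describe the letters in these windows and say nothing about binding.

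**Figure D1:**
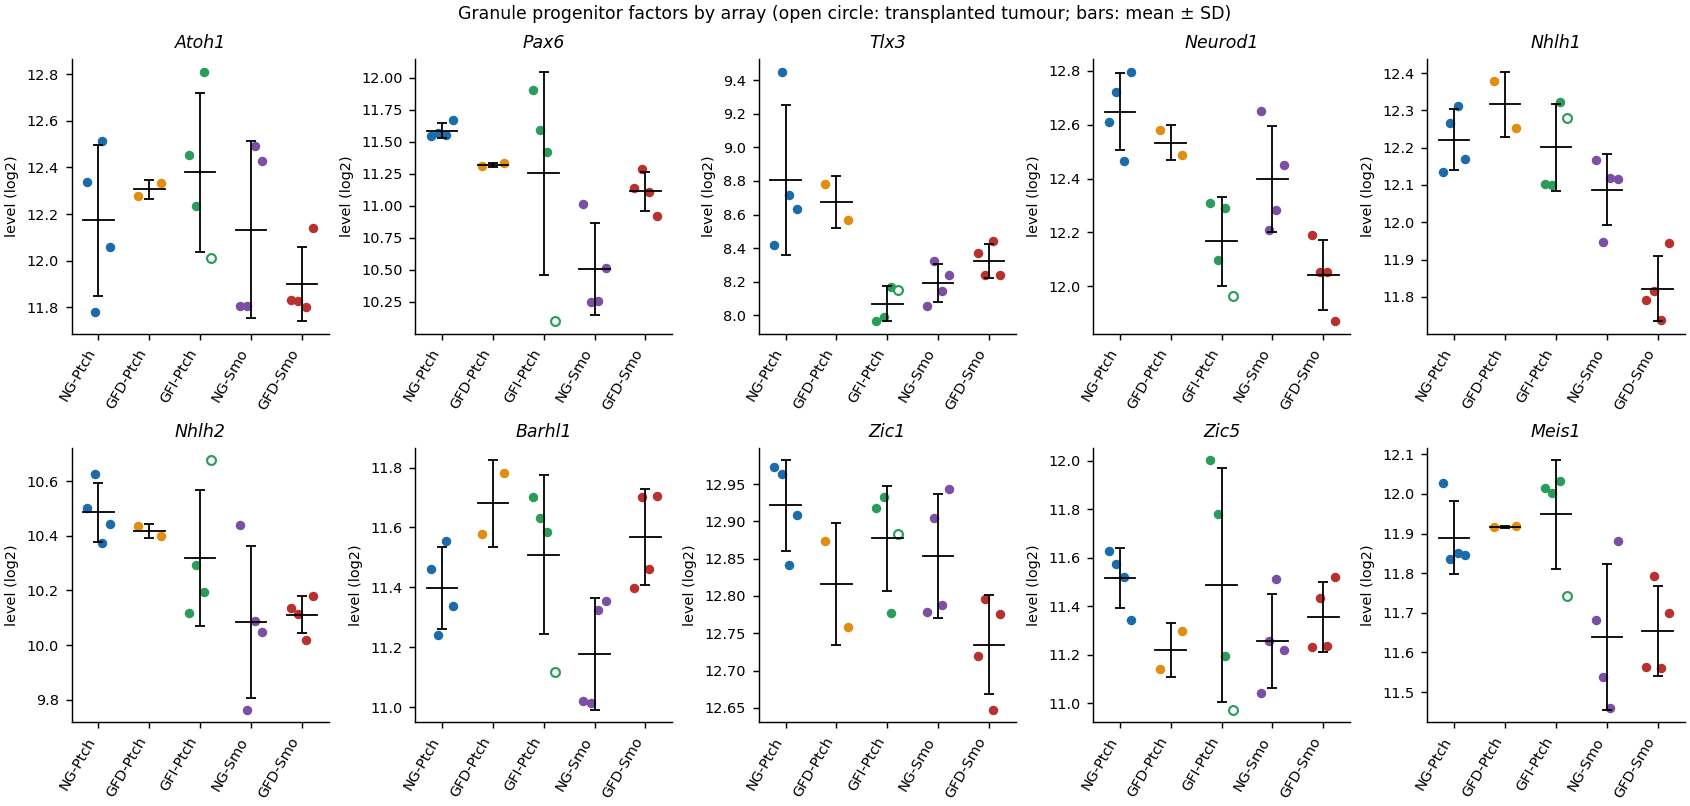
Level of each of the 10 factors on every array (y axis, log2 level as deposited; x axis, group), with bars for the group mean ± SD and an open circle for the transplanted tumour. Nhlh1 lay at 11.74 to 11.94 on the GFD-Smo arrays, below every other array, while Atoh1 overlapped between NG-Ptch, GFI-Ptch, NG-Smo and GFD-Smo.

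The basic helix-loop-helix factors come first. Nhlh1, a factor of newly formed neurons (probe set 10360202), had 80.8% of its variance between groups, against a median of 36.2% over all genes. Without the transplanted tumour these were 81.2% and 44.0%, and Pax6 then had a larger share. Its levels were 12.14, 12.27, 12.31 and 12.17 in NG-Ptch, 12.38 and 12.25 in GFD-Ptch, 12.10, 12.10, 12.32 and 12.28 in GFI-Ptch, 12.17, 11.95, 12.12 and 12.12 in NG-Smo, and 11.79, 11.82, 11.74 and 11.94 in GFD-Smo. The GFD-Smo arrays were the lowest of all, and the other groups overlapped apart from NG-Smo and GFD-Ptch. Group means ran from 11.82 ± 0.09 (SD, n = 4) in GFD-Smo through 12.09 ± 0.10 (n = 4) in NG-Smo, 12.20 ± 0.12 (n = 4) in GFI-Ptch and 12.22 ± 0.08 (n = 4) in NG-Ptch to 12.32 ± 0.09 (n = 2) in GFD-Ptch. Only the step from GFD-Smo to NG-Smo differed beyond the spread.

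Neurod1, which drives granule cells out of the cycle and into differentiation (probe set 10484276), had 75.1% of its variance between groups. It read 12.61, 12.72, 12.47 and 12.80 in NG-Ptch, 12.58 and 12.49 in GFD-Ptch, 12.31, 12.10, 12.29 and 11.96 in GFI-Ptch, 12.65, 12.21, 12.28 and 12.45 in NG-Smo, and 12.19, 12.05, 12.05 and 11.87 in GFD-Smo. The GFI-Ptch and GFD-Smo arrays were low and overlapped, and both lay below all NG-Ptch and GFD-Ptch arrays. From low to high the means were GFD-Smo 12.04 ± 0.13, GFI-Ptch 12.17 ± 0.17, NG-Smo 12.40 ± 0.20, GFD-Ptch 12.53 ± 0.07 and NG-Ptch 12.65 ± 0.14, and no neighbours in that order passed the test.

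Atoh1, the factor that specifies granule progenitors and holds them in division (probe set 10538751), varied more within groups than between them. Its levels were 12.34, 11.78, 12.51 and 12.06 in NG-Ptch, 12.28 and 12.33 in GFD-Ptch, 12.45, 12.24, 12.81 and 12.01 in GFI-Ptch, 11.80, 11.80, 12.49 and 12.43 in NG-Smo, and 11.83, 11.83, 11.80 and 12.14 in GFD-Smo. NG-Smo held a low and a high pair of arrays, and GFD-Smo had the lowest mean, 11.90 ± 0.16 (n = 4). The highest mean was that of GFI-Ptch, 12.38 ± 0.34 (n = 4), and 30.3% of the variance lay between groups. No comparison of Atoh1 passed the test.

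Nhlh2, the close relative of Nhlh1 (probe set 10494795), ranged from 9.76 to 10.68 over the arrays. Its highest array was the transplanted tumour, while the other GFI-Ptch arrays read 10.12, 10.29 and 10.19. The NG-Ptch mean was 10.49 ± 0.11 (n = 4) and the NG-Smo mean 10.08 ± 0.28 (n = 4), with GFD-Smo at 10.11 ± 0.07 (n = 4).

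Among the homeobox factors, Pax6, a paired-box protein that granule cells carry from the rhombic lip onward (probe set 10474312), had the widest range of the 10, from 10.10 to 11.90. It read 11.55, 11.57, 11.55 and 11.67 in NG-Ptch, 11.31 and 11.33 in GFD-Ptch, 11.90, 11.59, 11.42 and 10.10 in GFI-Ptch, 11.01, 10.25, 10.26 and 10.52 in NG-Smo, and 11.14, 11.29, 11.104 and 10.92 in GFD-Smo. The lowest value was the transplanted tumour, and all NG-Smo arrays lay below all NG-Ptch and GFD-Ptch arrays. The share of variance between groups was 51.5% with the transplanted tumour and 84.3% without it.

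Tlx3, a homeobox selector of excitatory neuron types (probe set 10385048), was at 8.42, 9.45, 8.72 and 8.64 in NG-Ptch, 8.78 and 8.57 in GFD-Ptch, 7.97, 7.99, 8.17 and 8.15 in GFI-Ptch, 8.06, 8.32, 8.15 and 8.24 in NG-Smo, and 8.37, 8.24, 8.44 and 8.24 in GFD-Smo. NG-Ptch lay above GFI-Ptch and above NG-Smo without overlap, with replicate 2 well above the other NG-Ptch arrays. Group means ran from 8.07 ± 0.11 in GFI-Ptch (n = 4) to 8.81 ± 0.45 in NG-Ptch (n = 4).

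Barhl1, a BarH-like homeobox factor that granule cells need for migration and survival (probe set 10481329), read 11.02, 11.01, 11.32 and 11.35 in NG-Smo and 11.40, 11.70, 11.46 and 11.71 in GFD-Smo, which did not overlap. Its mean was 11.40 ± 0.14 in NG-Ptch (n = 4), 11.68 ± 0.14 in GFD-Ptch (n = 2) and 11.51 ± 0.27 in GFI-Ptch (n = 4). The transplanted tumour was the lowest Ptch array, at 11.12. Meis1, a homeobox partner of the Pbx proteins (probe set 10384504), lay at 11.89 ± 0.09 in NG-Ptch (n = 4), 11.92 in both GFD-Ptch arrays and 11.95 ± 0.14 in GFI-Ptch (n = 4), against 11.64 ± 0.18 in NG-Smo (n = 4) and 11.65 ± 0.11 in GFD-Smo (n = 4). Among its Ptch arrays the transplanted tumour was again the lowest, at 11.74.

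The zinc finger factors Zic1 and Zic5 are relatives of the Gli proteins. Zic1 (probe set 10595695) stayed between 12.65 and 12.97 on all 18 arrays, the narrowest range among the members, with group means of 12.73 ± 0.07 in GFD-Smo (n = 4) to 12.92 ± 0.06 in NG-Ptch (n = 4). Zic5 had group means of 11.22 to 11.52 and 20.0% of its variance between groups, or 41.4% without the transplanted tumour. Its GFI-Ptch arrays were spread widely, at 12.0025, 11.78, 11.20 and 10.97, the last being the transplanted tumour and the lowest of all 18 arrays. The probe set that the rule chose for Zic5, 10376241, sits in identifier order between probe sets of Gm12238 and Gria1 on chromosome 11, whereas RefSeq places Zic5 on chromosome 14. Of 20397 probe sets between neighbours that share a chromosome, 97.39% lay on that chromosome too. Another Zic5 probe set, 10422504, sits among chromosome 14 genes and had group means of 9.57 to 9.73. It gave no call in any comparison either, and which of them reads Zic5 was not tested.

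**Figure D2:**
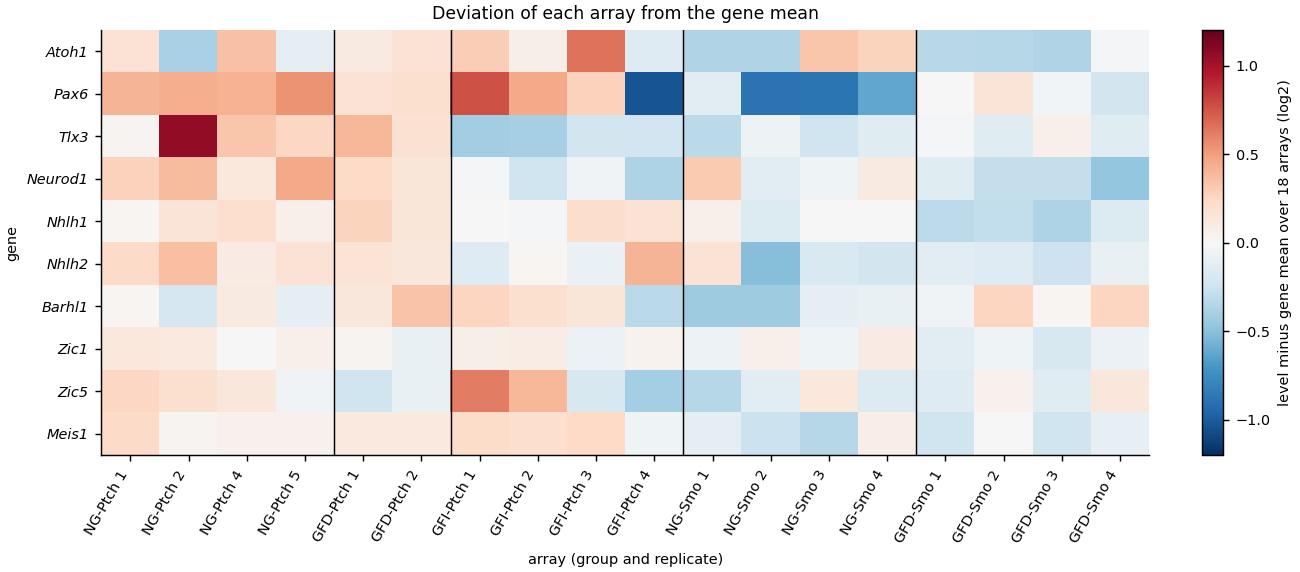
Deviation of each array from the gene's mean over 18 arrays (colour, log2; rows, the 10 factors; columns, arrays by group). The NG-Smo columns and the transplanted tumour (GFI-Ptch 4) are blue for Pax6, the GFD-Smo columns for Nhlh1 and Neurod1, and the row of Zic1 is nearly white.

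Within the Smo tumours, GFD-Smo was set against NG-Smo, which asks how the subtypes, and with them the Cre drivers, differ. Nhlh1 fell by 0.27 (SE 0.07, 1.202-fold; limma, Benjamini-Hochberg adjusted p = 0.0354) and was the 1 member called of 10, where 5.31% of all genes were called in either direction and 2.49% of all genes as lower. Neurod1 differed in the same direction by -0.36 (95% interval -0.58 to -0.13, adjusted p = 0.0639), and Barhl1 in the other by 0.39 (0.12 to 0.66, adjusted p = 0.101). For these 3 members the groups did not overlap, as for 12.6% of all genes. Pax6 differed by 0.60 (0.01 to 1.195, adjusted p = 0.3), with overlapping arrays. The interval for Atoh1 was -0.65 to 0.19 around -0.23.

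Here and below, some of the 31 alternative settings do not vary the arrays or values compared. Leaving out an array of a group not compared acts only through the shared spread. The other Zic5 probe set and the mean of a gene's probe sets leave the levels of Nhlh1 and Neurod1 unchanged. The Nhlh1 call was made in 19 of the 31. Leaving out NG-Smo replicate 1, 3 or 4 or GFD-Smo replicate 1, 2 or 3 gave adjusted p-values of 0.0713 to 0.12 with limma, and leaving out GFD-Smo replicates 2 and 3 together gave 0.39. It also missed the threshold with median centring (0.0617), with only the compared groups fitted (0.0601), with the Y-linked covariate (0.0579) and without GFI-Ptch replicate 4 and NG-Smo replicate 4 (0.0514). Without the transplanted tumour, which belongs to neither group but enters the shared spread, 4 members were called: Nhlh1, Neurod1 (adjusted p = 0.0387), Barhl1 (0.0266) and Pax6 (0.0182). Astrocyte markers moved with this comparison: 5 of 10 were called higher, where 5.31% of all genes were called in either direction. Their mean levels over the list were 11.12 to 11.21 in GFD-Smo and 9.84 to 10.09 in NG-Smo, and their part in the Nhlh1 result was not tested.

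GFD-Smo against GFD-Ptch compares the models within a subtype. Nhlh1 fell by 0.49 (SE 0.09, 1.41-fold; limma adjusted p = 0.00131) and Neurod1 by 0.49 (SE 0.13, 1.41-fold; adjusted p = 0.019) in GFD-Smo. They were 2 of 10 members called, where 15.6% of all genes were called and 7.1% as lower. Of the 10 members 9 lay below 0, with a median of -0.29 against -0.06 over all genes, and the same 9 of 10 were below 0 after quantile normalization and after median centring. The groups did not overlap for 7 members, as for 57.1% of all genes, with only 2 arrays in GFD-Ptch. Zic5 was the member above 0, at 0.13 (95% interval -0.33 to 0.60).

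Nhlh1 was called here in 31 of 31 alternatives, with adjusted p-values of 0.000298 to 0.028. Neurod1 was called in 26 of 31. With GFD-Ptch replicate 1 left out its adjusted p was 0.108, with replicate 2 left out 0.0927, and it was 0.0882 without GFD-Smo replicates 2 and 3, 0.0708 with the Y-linked level as a covariate and 0.0732 with the gender label. Over all genes 15.6% were called here, 7.1% as lower. Astrocyte markers moved with this comparison too: 9 of 10 were called higher in GFD-Smo, against list means of 8.83 to 8.94 in GFD-Ptch. Also called higher were 5 of 10 microglia and macrophage genes (mean level 9.40 to 9.53 in GFD-Smo, 8.72 to 9.01 in GFD-Ptch), 3 of 9 oligodendrocyte lineage genes (9.99 to 10.19 and 8.88 to 9.03), 3 of 8 neural stem cell genes (10.72 to 10.92 and 9.87 to 9.98) and 3 of 10 endothelial, pericyte and fibroblast genes (8.92 to 9.24 and 8.60 to 8.81). Of 13 genes of the ventricular zone and inhibitory neurons 1 was called higher, Gad2, at 6.25 to 7.84 in GFD-Smo and 6.13 and 6.27 in GFD-Ptch. Outside GFD-Smo all Gad2 levels lay under 7.803, the level of the filter on dim genes. Of 3 unipolar brush cell genes 1 was called lower, Calb2, at 7.76 to 9.61 and 10.82 to 11.15. Single calls, next to the shares over all genes, do not show a change in the cell type. The part of these cells in the Nhlh1 and Neurod1 results was not tested.

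Set against the remaining Ptch groups, GFD-Smo was again low for Nhlh1. Against NG-Ptch, Nhlh1 differed by -0.40 (limma adjusted p = 0.0019) and Neurod1 by -0.61 (adjusted p = 0.00187), 2 of 10 members where 8.66% of genes were called. Against GFI-Ptch, Nhlh1 differed by -0.38 (limma adjusted p = 0.00199) and Meis1 by -0.29 (adjusted p = 0.0424), 2 of 10 where 13.3% were called. The Meis1 arrays of these groups overlapped. These comparisons share the GFD-Smo arrays, so they do not support one another. Like those of NG-Smo that follow, they differ in both model and subtype. They were made to order the group means, and their calls were not followed over the alternative settings. NG-Smo gave 0 calls of 10 against GFD-Ptch and 0 of 10 against GFI-Ptch with limma, where 3.43% and 1.65% of genes were called; 6 and 4 members, and 4718 and 3136 genes, had an unadjusted p under 0.05.

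NG-Smo against NG-Ptch compares the models within the other subtype. All 10 members lay below 0, with a median of -0.25 against 0.01 over all genes, also after quantile normalization and after median centring. With the gender label as a covariate, and without NG-Ptch replicate 1 or 4 or NG-Smo replicate 1 or 2, 9 of 10 lay below 0. None of them passed the test with limma, where 1.04% of all genes did; at an unadjusted p under 0.05 there were 5 members and 2116 genes. Pax6 differed most, by -1.08 (95% interval -1.67 to -0.49, 2.11-fold, adjusted p = 0.0915), and Tlx3 by -0.61 (-0.95 to -0.28, adjusted p = 0.0865). These were the 2 members whose groups did not overlap, as for 5.65% of all genes. Without the transplanted tumour Pax6 was called (limma adjusted p = 0.00179), and without NG-Ptch replicate 1 Tlx3 was (0.0352). Microglia and macrophage markers moved with this comparison: 10 of 10 lay above 0 with a median of 0.42, and Cx3cr1 (0.91, adjusted p = 0.0278) and Aif1 (0.48, adjusted p = 0.02) were called higher. Their mean level was 9.57 to 9.79 in NG-Smo and 9.05 to 9.51 in NG-Ptch. Of 16 genes of differentiating granule neurons 4 lay above 0 (median -0.20), and of 3 unipolar brush cell genes 0 (-0.52). Of 8 neural stem cell genes 4 lay above 0, and 1, Sox9, was called lower. Above 0 were 5 of 10 astrocyte, 6 of 9 oligodendrocyte lineage and 8 of 10 endothelial, pericyte and fibroblast genes. The part of all these cells in the members' values was not tested.

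Among the Ptch tumours no member was called in any of the 3 comparisons of subtypes with limma. Such calls were rare over all genes, at 0.01% for GFD-Ptch minus NG-Ptch, 0% for GFI-Ptch minus NG-Ptch and 0.00502% for GFI-Ptch minus GFD-Ptch. At an unadjusted p under 0.05 the members numbered 0, 2 and 2 and all genes 3375, 1701 and 1952. The leading values were those of GFI-Ptch minus NG-Ptch: Tlx3 at -0.74 (95% interval -1.07 to -0.40, adjusted p = 0.162) and Neurod1 at -0.48 (-0.71 to -0.26, adjusted p = 0.171), the 2 members whose groups did not overlap, against 4.86% of all genes. Tlx3 and Neurod1 were also the 2 without overlap between GFI-Ptch and GFD-Ptch, as for 16.5% of genes, at -0.60 and -0.37. Atoh1 differed by 0.13 (-0.38 to 0.65) between GFD-Ptch and NG-Ptch and by 0.21 (-0.21 to 0.63) between GFI-Ptch and NG-Ptch. For GFD-Ptch minus NG-Ptch the members Pax6, Barhl1 and Zic5 were without overlap, 3 of 10 where 34.6% of genes were. By the other Zic5 probe set, described above, the groups overlapped. Astrocyte markers moved with that comparison: 0 of 10 lay above 0 (median -1.03, 0 calls). Their mean level was 8.83 to 8.94 in GFD-Ptch and 9.84 to 10.05 in NG-Ptch. Of 9 oligodendrocyte lineage genes 1 lay above 0 (median -0.71), and of 10 microglia and macrophage genes 1 (-0.36). Of 10 endothelial, pericyte and fibroblast genes 9 lay above 0 (0.34). For GFI-Ptch minus NG-Ptch 2 of 9 oligodendrocyte lineage genes lay above 0 (median -0.81) and 1 of 10 astrocyte genes (-0.29). So did 1 of 8 neural stem cell genes (-0.23) and 0 of 3 unipolar brush cell genes (-0.73). Microglia and macrophage genes had 6 of 10 above 0 (0.01), and endothelial, pericyte and fibroblast genes 6 of 10 (0.14). Developing muscle genes had 9 of 10 above 0 (0.77). The part of these cells in the members' values was not tested.

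Whether GFD minus NG differs between the models was tested directly. Of the 10 members 0 were called, where 3.81% of all genes were, and 1 member and 4016 genes had an unadjusted p under 0.05 with limma. The nearest to a call was Nhlh1, with a difference of -0.36 (95% interval -0.59 to -0.13, adjusted p = 0.084). Pax6 stood at 0.87 (-0.07 to 1.80, adjusted p = 0.28), and without the transplanted tumour it was called (adjusted p = 0.0365). Without NG-Smo replicate 2 Nhlh1 was called (adjusted p = 0.0456).

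**Figure D3:**
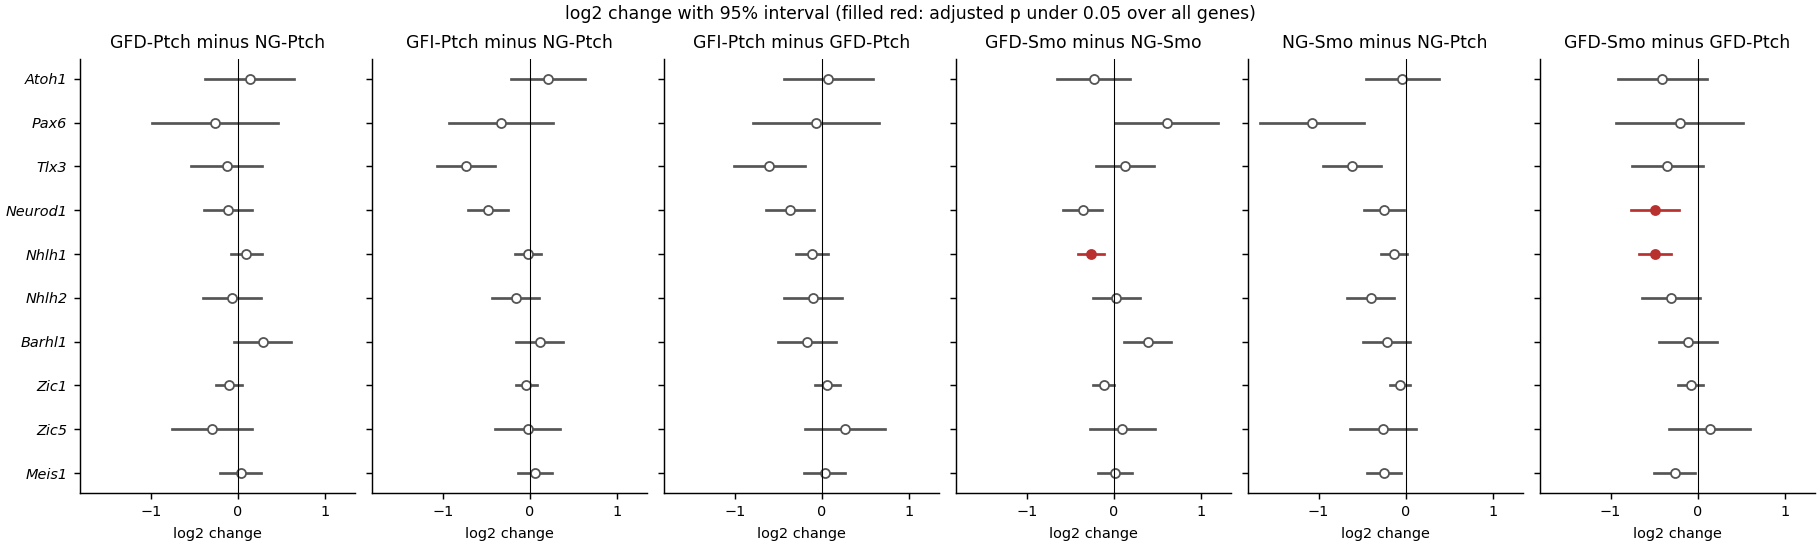
Log2 change of each factor (x axis) with its 95% interval in 6 comparisons of groups, filled red where the limma adjusted p over 19938 genes was under 0.05. Red points are Nhlh1 for GFD-Smo minus NG-Smo, and Neurod1 and Nhlh1 for GFD-Smo minus GFD-Ptch; for NG-Smo minus NG-Ptch all 10 points lie left of 0 and none is filled.

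Relatives of the members from the same gene families were read from a list of 15 genes, 14 of them measured. Between GFD-Smo and NG-Smo 2 rose and none fell: Pax3, a paired-box factor of dorsal progenitors, by 1.26 (SE 0.25; limma adjusted p = 0.0067), and Meis2 by 0.997 (SE 0.17; adjusted p = 0.00228). Pax3 was at 8.63 ± 0.36 in GFD-Smo (n = 4) and 7.37 ± 0.12 in NG-Smo (n = 4), with 7.11 to 8.55 in NG-Ptch, so GFD-Smo and NG-Ptch overlapped. Meis2 was at 6.99 ± 0.50 (n = 4) against 5.997 ± 0.13 (n = 4), and its Ptch groups had means of 5.88 to 5.98. All its levels lay under 7.803, the level of the filter on dim genes. Outside GFD-Smo they were 5.79 to 6.19, below the lower quartiles of the arrays (6.21 to 6.38). GFD-Smo replicate 4 read 6.30, close to NG-Smo replicate 4 at 6.19. The list's median change was 0.05, against -0.01 over all genes, of which 5.31% were called in this comparison.

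Against GFD-Ptch, GFD-Smo showed 3 relatives higher and 3 lower of 14, where 15.6% of all genes were called and 7.1% as lower. Neurod4 rose by 2.15 (SE 0.32; limma adjusted p = 0.000437), from 7.94 ± 0.19 (n = 2) to 10.09 ± 0.12 (n = 4), and NG-Smo arrays were high for it too, at 9.25 to 9.87. Pax3 rose by 1.36 and Meis2 by 1.01, while Neurod6 fell by 0.92 (adjusted p = 0.0417). Neurod4 thus stood higher in GFD-Smo than in GFD-Ptch where Neurod1, of the same family, stood lower.

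The dimer partners and inhibitors of such factors formed a list of 16 genes, 15 of them measured. Over all genes 5.31% were called in GFD-Smo minus NG-Smo, 15.6% in GFD-Smo minus GFD-Ptch and 3.81% for the difference between the models. Id4, an inhibitor that binds basic helix-loop-helix proteins and keeps them off DNA, rose between NG-Smo and GFD-Smo by 1.59 (SE 0.19; limma adjusted p = 0.000145). It read 7.89, 7.36, 7.53 and 7.70 in NG-Smo and 9.15, 9.23, 9.37 and 9.09 in GFD-Smo. The highest array elsewhere was GFI-Ptch replicate 1 at 8.45, so GFD-Smo stood clear of every other group. Pknox2, a relative of the Meis proteins, rose by 0.43 (adjusted p = 0.0433) and Pknox1 fell by 0.30 (adjusted p = 0.0349), which made 2 higher and 1 lower of 15. Against GFD-Ptch, Id4 rose by 1.92 (adjusted p = 9.37e-05) and Pknox2 by 0.87 (adjusted p = 0.00101), and none fell. The test of whether GFD minus NG differs between Smo and Ptch tumours called both, at 1.94 for Id4 (adjusted p = 0.00273) and 0.95 for Pknox2 (adjusted p = 0.0118).

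The Hedgehog list held components of the pathway, such as Smo and Sufu, as well as targets such as Hhip. Its calls therefore do not measure the response alone. Of its 14 measured genes, 2 rose and 1 fell between NG-Smo and GFD-Smo, where 5.31% of all genes were called. Gli3, a Hedgehog transcription factor that mostly acts as a repressor, rose by 1.83 (SE 0.23; limma adjusted p = 0.000262), from 6.74 ± 0.41 (n = 4) to 8.57 ± 0.07 (n = 4). Outside GFD-Smo all Gli3 levels lay under 7.803, the level of the filter on dim genes. Hhip, a decoy receptor that is itself a Hedgehog target, rose by 1.14 (SE 0.28; adjusted p = 0.0228). Ccnd2, the cyclin of dividing granule progenitors, fell by 0.61 (SE 0.11; adjusted p = 0.0046), from 12.83 ± 0.21 (n = 4) to 12.22 ± 0.09 (n = 4), and all GFD-Smo arrays were below all others. Against GFD-Ptch, 3 of the 14 were called higher and 1 lower in GFD-Smo, where 15.6% of all genes were called. Hhip rose by 1.93, Gli3 by 1.69 and Ptch1 by 1.30, and Ccnd2 fell by 1.07. Ptch1 was high on the NG-Smo arrays too, at 12.25 to 12.75. Ptch is also the gene that names the Ptch tumours, so for Ptch1 response and model cannot be told apart. Between NG-Smo and NG-Ptch the 1 call of 14 was Sufu, a negative regulator of the pathway, which fell by 0.59 (limma adjusted p = 0.0307). In that comparison 1.04% of all genes were called.

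**Figure D4:**
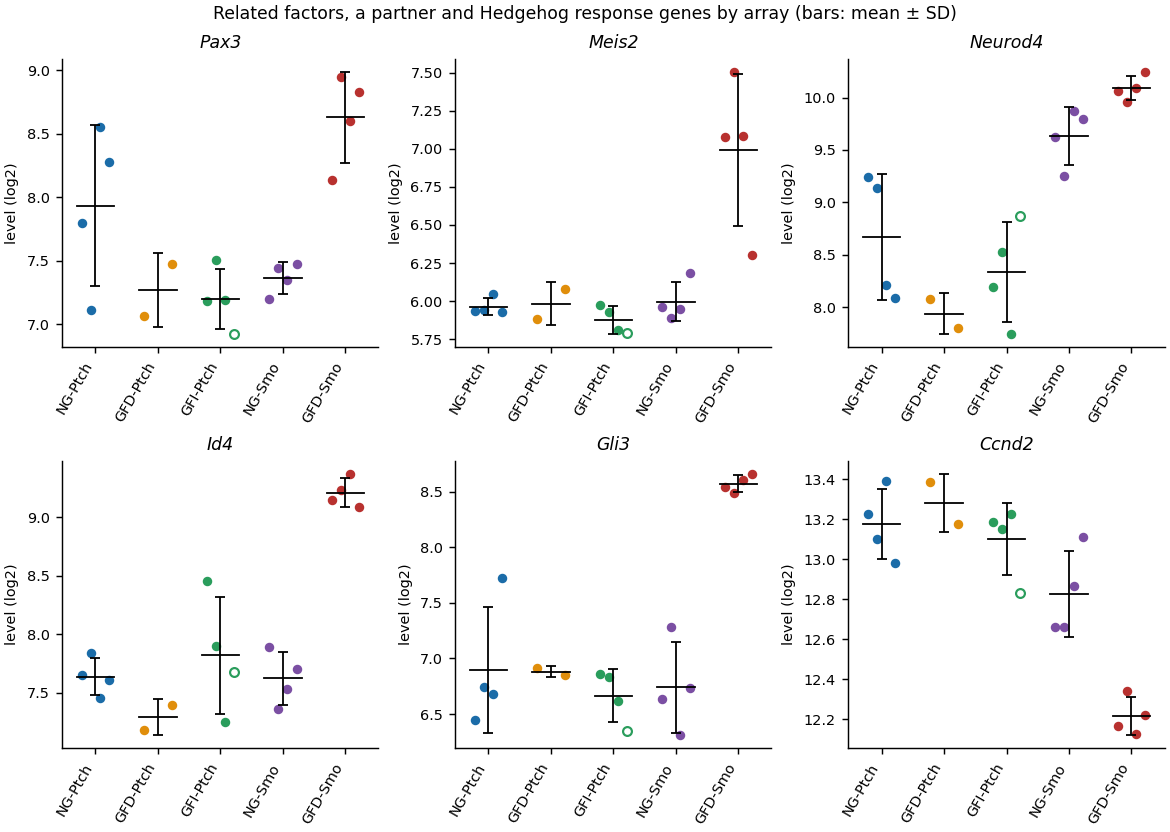
Levels of Pax3, Meis2, Neurod4, Id4, Gli3 and Ccnd2 on every array (y axis, log2; x axis, group; bars, mean ± SD; open circle, transplanted tumour). Id4 and Gli3 are highest and Ccnd2 lowest on the GFD-Smo arrays, without overlap with any other group.

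Genes of differentiating granule neurons gave 0 calls of 16 between GFD-Smo and NG-Smo, with a median change of 0.07. Over all genes 5.31% were called there and 15.6% between GFD-Smo and GFD-Ptch. Against GFD-Ptch, 2 rose and 1 fell in GFD-Smo: the neurofilament gene Nefl by 2.02 (limma adjusted p = 0.0335) and Nefm by 0.57 (adjusted p = 0.032), while Rbfox3, a marker of mature neurons, fell by 0.59 (adjusted p = 0.0277). All Nefm levels, 6.38 to 7.18, lay under 7.803, the level of the filter on dim genes, as did Nefl in GFD-Ptch, at 6.97 and 6.86. In GFI-Ptch minus NG-Ptch, where Neurod1 and Tlx3 had their lower values, 1 of these 16 genes lay above 0 and the list's median was -0.58, with 0 calls.

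Other lists covered cells a tumour can hold, and are given here for GFD-Smo minus NG-Smo, where 5.31% of all genes were called. Neural stem cell genes had 1 call of 8 between GFD-Smo and NG-Smo, Hopx at 1.23 (limma adjusted p = 0.000287). The astrocyte calls were led by Gja1, a gap junction protein, which rose by 2.32 (adjusted p = 0.000646), and Aqp4, the water channel of astrocyte endfeet, which rose by 1.89 (adjusted p = 0.00383). Endothelial, pericyte and fibroblast genes had 4 calls of 10, all higher, among them Kdr at 0.84 (adjusted p = 0.00628). Microglia and macrophage genes had 1 call of 10, Aif1, which fell by 0.35 (adjusted p = 0.0309), and oligodendrocyte lineage genes had 0 of 9. Of 13 genes of the ventricular zone and inhibitory neurons, and of 3 unipolar brush cell genes, 0 were called. Among 14 cell cycle genes Mcm2, a replication helicase subunit, was the 1 call and fell by 0.48 (adjusted p = 0.00677).

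The transplanted tumour, low for Pax6, Barhl1, Zic5 and Meis1 and high for Nhlh2, was also the array with the highest mean level of developing muscle genes, at 9.67 over 10 genes, where the other GFI-Ptch arrays read 7.17, 7.12 and 7.003. Its mean level of astrocyte genes was 8.63, the lowest of its group. The part of these in its member values was not tested.

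Over the 18 arrays the members did not run in parallel. The closest pairs were Pax6 with Meis1 (Pearson r = 0.669) and Nhlh1 with Nhlh2 (r = 0.65), and the lowest were Atoh1 with Tlx3 (r = -0.227) and Neurod1 with Barhl1 (r = -0.215), each across arrays that share groups and given without a test. Without the transplanted tumour Pax6 with Meis1 was at 0.726, Neurod1 with Nhlh2 at 0.697 and with Nhlh1 at 0.69, Nhlh1 with Nhlh2 at 0.629, and Neurod1 with Barhl1 was the lowest, at -0.377. Atoh1 correlated with Nhlh1 at 0.547 and with Neurod1 at 0.109. Genes outside the list whose levels followed a member most closely, by the same measure over 18 arrays, were Rbsn and Brk1 for Nhlh1 (0.95 each), Lgr5 (0.922) and Nos1 (0.918) for Neurod1, and Ptprg (0.912) and Tspan18 (0.895) for Atoh1. For Pax6 they were Tatdn3 (0.926) and Rgs13 (0.91), and for Meis1 Ewsr1 (0.9) and Snora30 (0.88). Tlx3 was followed by Fkbp1b (0.847) and Asb15 (0.826), Barhl1 by Rtn3 (0.842) and Deaf1 (0.824), and Nhlh2 by Mtif2 (0.841) and Snapc1 (0.839). Zic5 was followed by its family member Zic2 (0.821) and by Elf1 (0.802), and Zic1 by Mir153 (0.782) and Septin11 (0.765). With group means removed, Nhlh1 correlated with Rbsn at 0.727 and with Brk1 at 0.747, Neurod1 with Lgr5 at 0.81 and Atoh1 with Ptprg at 0.886. Over all the genes named these values ran from 0.632 (Zic1 with Septin11) to 0.906 (Pax6 with Tatdn3).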

How the data were processed

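Log2 expression values of 35556 probe sets on 18 arrays were used as the authors deposited them. The submitters' processing notes name Partek 6.6; background correction, probe summary and scaling between arrays are not given in the sources used here. Base 2 was inferred from the highest value, 14.32, because the natural log of a 16-bit reading cannot exceed 11.09. Of the probe sets, 21789 had exactly 1 symbol in the platform annotation, and for 999 genes with several the one with the highest mean was kept, which left 19938 genes. No filter or new normalization was applied. All 18 arrays were fitted with limma 3.58.1 in R 4.3.3, with 1 mean per group and a common variance for each gene (residual degrees of freedom 13, prior 2.448). Moderated tests were two-sided, with Benjamini-Hochberg adjustment over all 19938 genes and calls made below 0.05. The scripts were tested on simulated data. Figures were drawn with matplotlib 3.10.9, and tables were handled with pandas 2.3.3 in Python 3.11.15. The number of arrays limits the precision.

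Named genes were all members, the 2 genes most correlated with each (predicted loci, receptor families and Y-linked genes left out) and, per list and comparison, up to 4 called genes of largest change. The 13 lists held 155 genes, 146 of them measured, and a list's level is the mean log2 value of its genes. Members and lists were chosen with earlier results of these data known. Alternatives were quantile normalization, median centring, a filter on dim genes, the mean of a gene's probe sets, arrays of the compared groups only, array weights, an intensity trend with a robust prior, the gender label as a covariate, the replicate number as a block, and leaving out each array in turn. After the data were seen, 4 more were added: a Y-linked covariate, leaving out GFI-Ptch replicate 4 and NG-Smo replicate 4, which stood apart from their groups, leaving out GFD-Smo replicates 2 and 3, and the other Zic5 probe set.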

Additional observations from a re-analysis of the deposited data

Results flagged for a closer look

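In the 40 sets of 4 arrays (10 members in each of 4 groups), an array was singled out where its gap to the nearest other as a share of the set's range exceeded Dixon's 95% critical value, which chance does in about 1 in 20 sets. There were 4 such values. Atoh1 was highest in GFD-Smo replicate 4, at 12.14 against 11.80 to 11.83 in the others. Pax6 was highest in NG-Ptch replicate 5, at 11.67 against 11.55 to 11.57. Meis1 was highest in NG-Ptch replicate 1, at 12.03 against 11.83 to 11.85. In GFI-Ptch the transplanted tumour had the lowest Meis1 level, 11.74 against 12.001 to 12.03.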

How the results depend on the processing

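Over the members and the 7 comparisons, no called value changed sign, and 1854 of the planned single-gene results stayed on the same side of the threshold, while 24 gained and 12 lost a call. Members called in GFD-Smo minus NG-Smo numbered 1, and 0 when only the groups compared were fitted, 4 with array weights (Pax6, Neurod1, Nhlh1 and Barhl1), 0 with the Y-linked covariate, 2 without GFI-Ptch replicate 4 and NG-Smo replicate 4 together, 0 without GFD-Smo replicates 2 and 3, and 0 to 4 with an array left out. In GFD-Smo minus GFD-Ptch they numbered 2, and 6 when only the groups compared were fitted, 1 with the gender label or the Y-linked covariate, 1 without GFD-Smo replicates 2 and 3, and 1 to 3 with an array left out. In NG-Smo minus NG-Ptch they numbered 0, and 1 (Pax6) with the groups compared only or with array weights, 2 without GFI-Ptch replicate 4 and NG-Smo replicate 4, and 0 to 1 with an array left out. In GFI-Ptch minus NG-Ptch array weights gave 1 (Neurod1, limma adjusted p = 0.0301) and leaving out an array 0 to 0, as it did for GFD-Ptch minus NG-Ptch and GFI-Ptch minus GFD-Ptch. The difference between the models went from 0 to 1 with the groups compared only (Pax6) and with array weights (Nhlh1), and to 0 to 1 with an array left out. Of 40 pairs of neighbours in the order of a member's group means 1 differed, and 0 did with median centring, the Y-linked covariate or without GFD-Smo replicates 2 and 3, 2 with the groups compared only, 5 with array weights, 3 without GFI-Ptch replicate 4 and NG-Smo replicate 4, and 0 to 3 with an array left out. The causes were not tested. Where GFD-Ptch was left with 1 array, it was assumed to vary like the other groups.

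Replicate numbers did not pair the arrays: of 29 pairs of arrays with the same number 3 had correlated deviations above 0.1 (range -0.31 to 0.187), and 2 of 18 arrays correlated best with their own number. With the replicate block, members called were 0, 0, 0, 1, 0, 2 and 0 in the 7 comparisons, the call in the Smo tumours passed from Nhlh1 (adjusted p = 0.0512) to Neurod1 (0.0489), and 0 pairs of neighbours differed.

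Calls over all genes moved more. With an array left out they ranged over 1 to 144 for GFD-Ptch minus NG-Ptch (2 with all arrays), 0 to 8 for GFI-Ptch minus NG-Ptch (0), 1 to 47 for GFI-Ptch minus GFD-Ptch (1), 643 to 1553 for GFD-Smo minus NG-Smo (1058), 75 to 384 for NG-Smo minus NG-Ptch (208), 997 to 4376 for GFD-Smo minus GFD-Ptch (3110) and 248 to 1285 for the difference between the models (759). Over the other settings they ranged over 0 to 689, 0 to 180, 0 to 64, 286 to 1740, 34 to 1169, 1177 to 6709 and 159 to 1484 in the same order. Quantile normalization and median centring moved the median of all genes by less than 0.1 in each comparison.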
